A study of Mus musculus with 9 samples.

Results

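A group of 10 antioxidant defence genes, Hmox1, Gclc, Gclm, Nqo1, Slc7a11, Txnrd1, Srxn1, Nfe2l2, Keap1 and Gpx4, were followed across the cell types of the mouse eye and between control and dKO mice. They make up 10 of the 37725 genes of the expression matrix. The genes were chosen by name with results of these data known, and the cells were selected on measured UMIs of marker genes. Both the levels by cell type and the differences between dKO and control mice are therefore given as descriptions of these samples, and a p value places a gene among all genes tested and lends the choice of genes no support.

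Single-cell RNA sequencing was done on the retina with retinal pigment epithelium (RPE) of 9 mice, with both retinas of a mouse combined. All 9 mice were RPE65-ERT2-Cre.miR-211fl.miR-204fl, that is, they carried floxed miR-204 and miR-211 and a Cre recombinase that tamoxifen switches on and the Rpe65 promoter restricts to RPE. The 4 control mice (S01 to S04) received the corn oil vehicle, and the 5 dKO mice (S05 to S09) received tamoxifen at 75 mg/kg by intraperitoneal injection on 5 consecutive days from postnatal day 28. All were sampled 6 months after induction. A difference between the groups is thus one between tamoxifen and vehicle in floxed, Cre-carrying mice, in which the drug and the deletion cannot be told apart. The study's text also speaks of Cre-negative mice given tamoxifen as controls, whereas the labels of these samples, followed here, give corn oil. The mature miRNAs are not rows of the matrix, so the deletion itself was not checked here.

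NRF2, the product of Nfe2l2, is a transcription factor that KEAP1 holds in the cytoplasm and hands over for degradation. Oxidants and electrophiles modify KEAP1, NRF2 then accumulates, binds antioxidant response elements and raises genes of glutathione synthesis, the thioredoxin system, quinone reduction and heme breakdown. RPE cells, which face light, high oxygen tension and a daily load of photoreceptor outer segments rich in polyunsaturated lipids, are known to depend on these genes, and Müller glia are the main glutathione store of the neural retina.

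The 2 deleted miRNAs are shown with their seed, bases 2 to 8, in capitals, because the seed pairs with target transcripts and is the same in both. They lie on GRCm38.p6 at chr19:22750610-22750631 (plus strand) and chr7:64205831-64205852 (plus strand), the sequences are those of RefSeq, and they differ in 1 base, at position 17 from the 5′ end.
mmu-miR-204-5p: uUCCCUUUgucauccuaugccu
mmu-miR-211-5p: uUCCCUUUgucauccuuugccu
The match to this seed, AAAGGGA, was searched in the 3′-UTR of the canonical transcript of each gene (GRCm39, GENCODE M39). It was found in 1 of the 10 genes, Srxn1, against 16.69% of 19213 genes with a 3′-UTR, while the median 3′-UTR length was 1591 bases for the 10 genes and 1178 for all. The sites lie on the plus strand at chr2:151955786-151955792 and chr2:151956393-151956399, and are printed with 11 bases on either side and the match in capitals.
Srxn1 site 1: caaccatctgtAAAGGGAtaggatgccct
Srxn1 site 2: cttccatagagAAAGGGAtactgcctaca
Neither site is followed by an A.

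The core of the antioxidant response element, TGACNNNGC, was searched on both strands of RefSeq promoter windows, from 250 bases before to 50 after each start site (GRCm38.p6). That source has a window for 8 of the 10 genes, and those of Hmox1 and Gclc were not analysed here. The core was present in windows of 4 of these 8 genes (Gclm, Nfe2l2, Txnrd1 and Srxn1), against 13.99% of 27025 genes, and in 4 of their 13 windows, against 12.39% of all 32851 windows. Of Txnrd1, 1 of 3 windows held it. Matches that begin 134, 240 and 92 bases before the start of Gclm, Nfe2l2 and Txnrd1 are shown with the match in capitals. These are the matches that lie wholly before a start site, and that of Srxn1 begins 28 bases after it. They lie at chr3:122245413-122245441 (plus strand), chr2:75704885-75704913 (minus strand) and chr10:82859104-82859132 (plus strand), and in Gclm and Txnrd1 the core reads on the opposite strand.
Gclm: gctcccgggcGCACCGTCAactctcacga
Nfe2l2: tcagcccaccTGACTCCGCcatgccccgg
Txnrd1: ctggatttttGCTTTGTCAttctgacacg
The AP-1 motif TGACTCA, which can overlap an antioxidant response element, was present for 5.946% of genes and for 1 of the 8, Srxn1, with 2 matches. A match is a run of letters and not a measured binding site.

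The matrix holds 31089 cells with 15079143 to 66528160 unique molecular identifiers (UMIs, one per captured transcript) per mouse, and the mice shared 0 barcodes. Cells were assigned to 13 types by UMIs of 5 markers each, which left 26423 cells, among them 285 RPE cells, 2123 Müller glia and 15299 rods. Type names stand for cells that passed these marker gates. Of the RPE markers, Rpe65 and Lrat were each detected in 99.3% of RPE cells, Rdh5 in 98.2% and Stra6 in 91.2%, while Best1 had 2 UMIs in all. RPE cells were uneven among mice. In 6 mice there were 38 to 53 of them, S04 had 0, S05 had 3 and S07 had 6, so the RPE comparison is of 3 control mice (S01, S02, S03) with 3 dKO mice (S06, S08, S09), all with high Xist RNA. The labels give S06 and S07 a common animal number, but these differed in Xist and Y-linked RNA and were taken as different mice. Levels are given as CPM, the UMIs of a gene per 1000000 UMIs of that cell type in a mouse.

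Hmox1 encodes heme oxygenase-1, the inducible enzyme that breaks heme down to biliverdin, carbon monoxide and iron. It lies on chromosome 8 at 75820241 to 75827217 (GRCm39). It was a low gene of few cell types. The median level over mice was 23.6 CPM in fibroblasts (14.0 to 42.0, 6 mice), 21.0 CPM in microglia or macrophages (9.76 to 65.4, 3 mice and 12 UMIs) and 9.003 CPM in RPE (2.08 to 29.2, 6 mice). These 3 ranges overlapped, RPE with the others only through its dKO mice. RPE was at 2.08 to 5.17 CPM in control and 12.8 to 29.2 CPM in dKO mice, and its median lies between them. Ganglion cells came next at 0.996 CPM, rods at 0.83 CPM and Müller glia at 0.48 CPM. In each of the 6 mice RPE lay above rods and above Müller glia. A Hmox1 UMI was seen in 15.1% of RPE cells, against 0.497% of rods and 0.801% of Müller glia, at a median of 20321, 4733 and 14797 UMIs per cell.

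Gclc encodes the catalytic subunit of glutamate-cysteine ligase, the rate-limiting enzyme of glutathione synthesis, and lies on chromosome 9 at 77661797 to 77701770. Its median level was highest in fibroblasts, at 281 CPM (138 to 571), and all 6 mice with both types had fibroblasts above horizontal cells, the next type at 89.3 CPM (68.8 to 99.4). Ganglion cells followed at 81.9 CPM, Müller glia at 59.6 CPM, RPE at 41.5 CPM (29.9 to 66.3) and rods at 29.1 CPM (25.1 to 31.4). Below fibroblasts, neighbours in this order overlapped. Müller glia exceeded rods in 9 of 9 mice, by 1.04 ± 0.63 on the log2 scale of CPM plus 1 (SD), and RPE exceeded rods in 5 of 6.

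Gclm, the modifier subunit of the same enzyme, had another order. It was highest in Müller glia, at a median of 80.4 CPM (60.9 to 86.8), then RPE at 65.9 CPM (62.8 to 68.5) and ganglion cells at 53.4 CPM, with rods at 18.0 CPM (16.6 to 23.1). Müller glia lay above RPE in 6 of 6 mice, though by only 0.29 ± 0.11 (SD) on the log2 scale. Slc7a11, the cystine carrier that supplies cysteine for glutathione, was at a median of 46.3 CPM in Müller glia (19.6 to 65.3) and 1.83 CPM in rods (0.69 to 2.06). Microglia or macrophages had a median of 39.2 CPM (0 to 157, 3 mice and 25 UMIs), overlapping Müller glia. Their mean was the higher, at 65.5 against 45.0 CPM. Fibroblasts had a median of 21.8 CPM (11.3 to 36.3). The ratio of Müller glia to rods was 4.06 ± 0.43 on the log2 scale (SD, 9 mice). RPE had 0 to 3.25 CPM of Slc7a11, from 23 UMIs in all, and lay below Müller glia in every mouse.

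Nqo1 encodes a quinone reductase and had the highest ratio of RPE to rods among the 10 genes. Its median was 41.8 CPM in RPE (26.0 to 62.4), followed by fibroblasts at 8.59 CPM (0 to 12.5), Müller glia at 3.11 CPM and rods at 0.53 CPM (0.20 to 0.999). RPE exceeded Müller glia by 3.44 ± 0.27 and rods by 4.72 ± 0.58 on the log2 scale of CPM plus 1 (SD, 6 of 6 mice each). A UMI of Nqo1 was present in 49.1% of RPE cells and in 0.275% of rods. Gpx4, the selenoenzyme that reduces lipid hydroperoxides in membranes, was likewise highest in RPE. It had 77.5 CPM there (67.2 to 94.2), against 26.0 CPM in fibroblasts, 21.1 CPM in Müller glia and 18.5 CPM in rods, and RPE stood above Müller glia and rods in 6 of 6 mice.

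Txnrd1, the cytosolic thioredoxin reductase, was highest in fibroblasts at 468 CPM (365 to 522) and next in RPE at 208 CPM (107 to 290). Müller glia had 48.6 CPM and rods 24.1 CPM, and the RPE and rod ranges did not overlap. Srxn1, sulfiredoxin, which repairs overoxidised peroxiredoxins, was instead highest in ganglion cells at 38.8 CPM (27.7 to 52.0). It had 23.8 CPM in fibroblasts, 14.6 CPM in amacrine cells, 5.74 CPM in RPE and 4.39 CPM in rods, with overlapping ranges in RPE, rods and Müller glia.

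Nfe2l2 itself was highest in microglia or macrophages, at 378 CPM (322 to 471, 3 mice). Fibroblasts at 113 CPM and endothelial cells at 106 CPM came next, then RPE at 52.2 CPM (38.5 to 66.9), Müller glia at 30.01 CPM (26.1 to 40.2) and rods at 18.1 CPM (14.1 to 23.5). Ganglion cells had 15.3 CPM (11.01 to 20.1), and the lowest medians were 2.63 CPM in ON bipolar cells and 1.80 CPM in horizontal cells. Keap1 was near level across types. Its medians ran from 14.3 CPM in cones to 29.6 CPM in endothelial cells, with RPE at 16.7, Müller glia at 17.6 and rods at 17.7 CPM, except for microglia or macrophages, where 7 UMIs in all gave a median of 0.

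**Figure D1:**
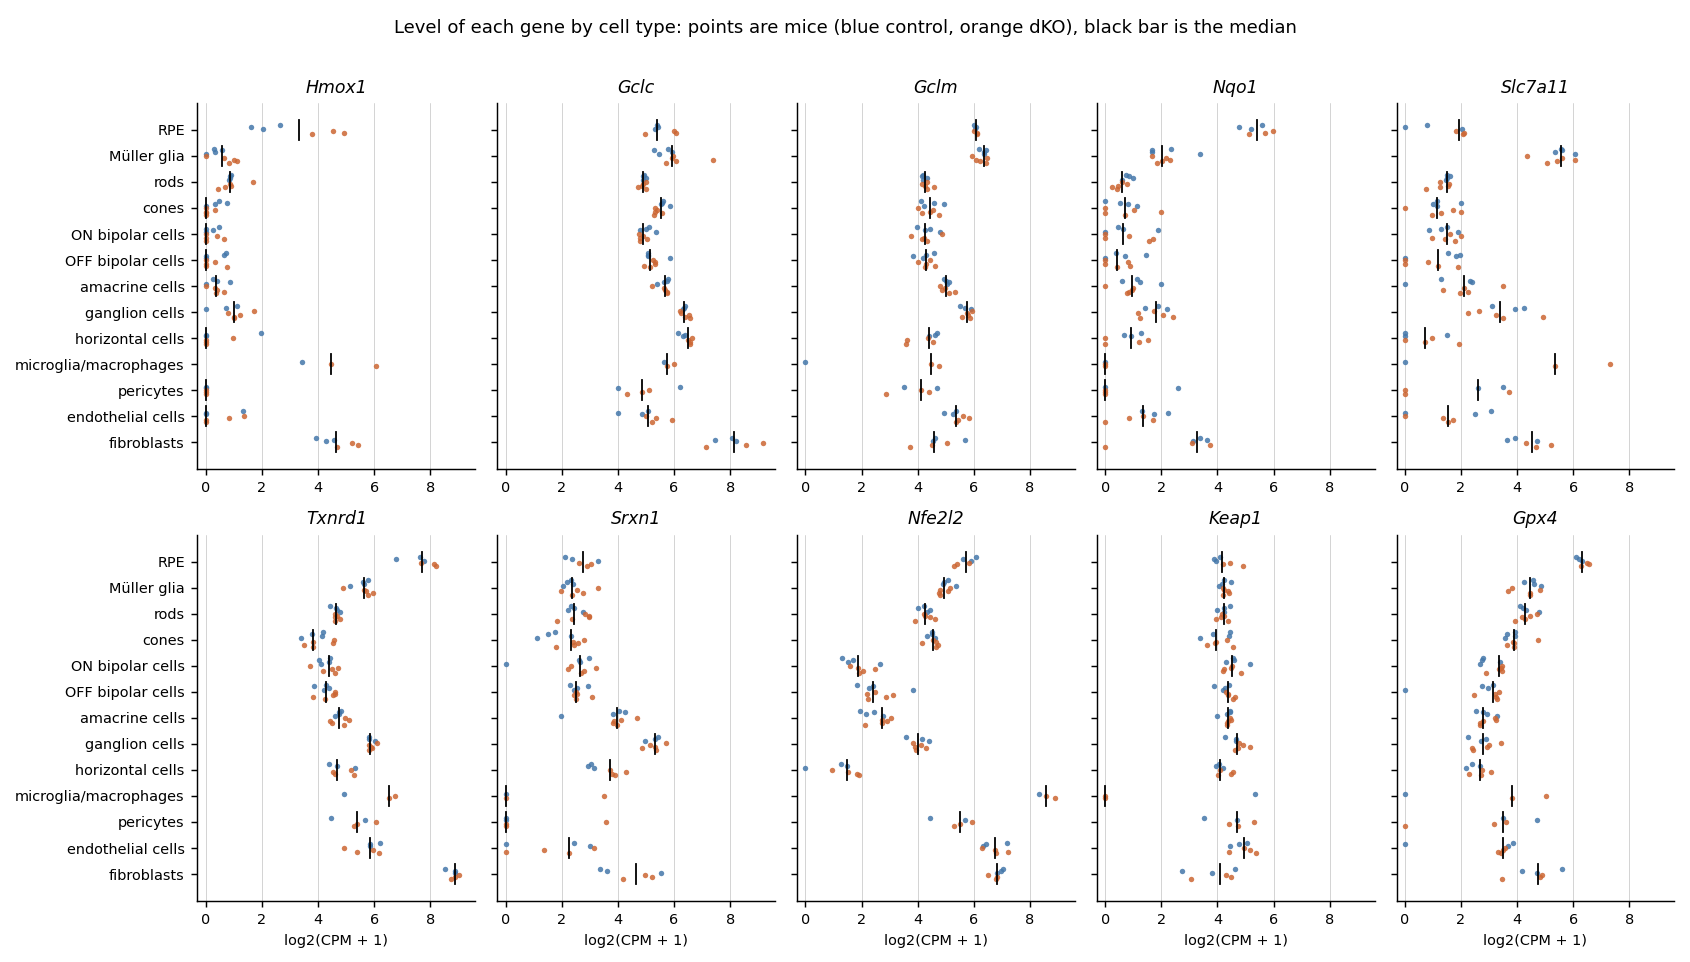
Level of each of the 10 genes (horizontal axis, log2 of CPM plus 1) in 13 cell types (vertical axis). Each point is a mouse with at least 10 cells of the type (blue control, orange dKO) and the black bar is the median. By the median, Nqo1 and Gpx4 were highest in RPE, Slc7a11 and Gclm in Müller glia, and Gclc, Txnrd1 and Hmox1 in fibroblasts. Keap1 was near level across types.

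Of the 10 genes, 6 lay above rods in RPE in every one of 6 mice (Hmox1, Gclm, Nqo1, Txnrd1, Nfe2l2 and Gpx4), and 0 lay below in every mouse. Of 16144 genes that reached a set minimum of UMIs summed over these types and mice, 24.1% were above and 40.2% below in every mouse. The same minimum applied to the comparisons that follow. In Müller glia 6 of the 10 lay above rods in 9 of 9 mice (Gclc, Gclm, Nqo1, Slc7a11, Txnrd1 and Nfe2l2), against 20.7% of 18884 genes, and 0 lay below, against 23.7%. RPE was above Müller glia in every mouse for Hmox1, Nqo1, Txnrd1, Nfe2l2 and Gpx4 (19.6% of 15926 genes), and below for Gclm and Slc7a11 (37.6%). Overlapping genes limit some of these values, since reads of Txnrd1 could have been given to Eid3, which lies within it on the same strand and had 142 UMIs in RPE beside the 2308 of Txnrd1. Genes on the opposite strand that are rows of the matrix overlap Gclm, Slc7a11, Txnrd1, Nfe2l2 and Keap1. Others, absent from the matrix, overlap Gclc, Srxn1 and Gpx4. In rods the counted opposite gene had 32.1% as many UMIs as Gclm and 24.5% as many as Keap1. These shares were 6.10% and 3.63% in RPE and 11.2% and 16.9% in Müller glia. Whether the counting used strand is not given in the sources used here.

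Between dKO and control mice, none of the 10 genes passed the edgeR test in a cell type where it was tested. Microglia or macrophages and pericytes had too few mice to be tested, and Hmox1 entered the fit only in RPE and fibroblasts. In RPE, Hmox1 had 5.17, 2.08 and 3.06 CPM in control mice S01, S02 and S03, and 21.9, 29.2 and 12.8 CPM in dKO mice S06, S08 and S09. Every dKO mouse was above every control mouse. The values rest on 14, 2 and 7 UMIs in control and 52, 45 and 12 UMIs in dKO mice, and the 2 UMIs of S02 are under the 3 counts taken as the floor. The means were 3.44 ± 1.58 and 21.3 ± 8.22 CPM (SD, n = 3 and 3). In edgeR's quasi-likelihood test the log2 fold change was 2.54 (SE 0.41), a 5.80-fold higher level in dKO RPE, with an adjusted p of 0.251 over 10036 genes. Hmox1 entered the fit only through the dKO mice, since the filter on low counts asked for 5.23 CPM in 3 mice, which 3 of 3 dKO and 0 of 3 control mice reached. A gene that enters in this way has to differ, so its p value and the separation of the groups are a description. DESeq2 on the same counts gave a log2 fold change of 2.57 and an adjusted p of 0.00540, so the call depends on the tool. Over all alternatives the adjusted p ran from 2.47e-07 to 0.99974 with the direction the same in 17 of 17. Nearly all of these reuse the same mice, whose groups did not overlap, so the shared direction lends no support. The other 2 dKO mice had too few RPE cells to enter, with 1 Hmox1 UMI in 3 cells of S05 and 0 in 6 cells of S07.

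Hmox1 was carried by a minority of RPE cells. A Hmox1 UMI was present in 7 of 53, 2 of 40 and 6 of 51 control cells and in 12 of 52, 12 of 42 and 3 of 38 dKO cells. The highest single cell held 5, 1 and 2 UMIs in control mice and 21, 16 and 6 UMIs in dKO mice. The shares of cells overlapped between groups, with S09 at 7.89% between the control values of 5.00% and 13.2%. In raw UMIs, the highest cell of every dKO mouse exceeded that of every control mouse. These cells differed in depth. The highest cell had 6 Hmox1 UMIs of 89445 in dKO mouse S09 and 5 of 65040 in control mouse S01. Relative to depth, that of S09 therefore did not exceed that of S01. RPE cells of S09 were shallow, at a median of 3577.5 UMIs against 11266.5 to 30785.5 in the other 5 mice. Its deepest cells held 292866, 190615, 120642 and 89445 of its 934920 RPE UMIs. All 12 of its Hmox1 UMIs lay in 3 of these cells. The RPE levels of S09, for every gene, therefore rest mostly on these few cells. With the top cell of each mouse left out, the levels were 3.41, 1.09 and 2.27 CPM in control and 13.5, 20.2 and 7.10 CPM in dKO mice, still without overlap, and edgeR gave a log2 fold change of 2.45 (SE 0.48) with an adjusted p of 0.849. After each cell was thinned to 5000 UMIs, a Hmox1 UMI remained in 0 of 44, 0 of 25 and 1 of 47 control cells and in 3 of 45, 1 of 35 and 1 of 13 dKO cells, with 4 to 25 cells per mouse too shallow to enter.

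**Figure D2:**
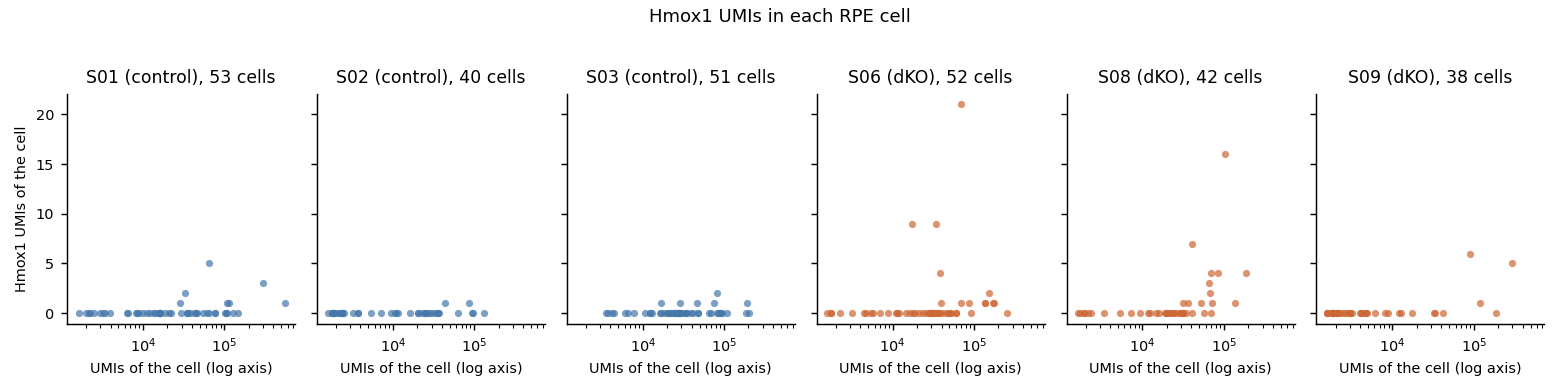
UMIs of Hmox1 (vertical axis) against all UMIs (horizontal axis, log) of each RPE cell, 1 panel per mouse (blue control, orange dKO). Most cells sit at 0 in all 6 mice, and the highest cell holds 5, 1 and 2 UMIs in S01, S02 and S03 and 21, 16 and 6 in S06, S08 and S09.

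Markers of the other cells with Hmox1 were measured in the same RPE sums. The 5 fibroblast markers together had 0 to 3.50 CPM in control and 2.14 to 3.25 CPM in dKO RPE, with Col1a1 and Lum at 0 UMIs. Of the microglial markers, C1qa had 1 UMI and C1qb 0 in all RPE cells, and the list summed to 180 to 236 CPM in control and 207 to 216 CPM in dKO mice, nearly all from Csf1r. Rod markers summed to 240 to 357 CPM in control and 232 to 274 CPM in dKO RPE. Immediate early and heat shock genes, which dissociation is known to raise, summed to 1995, 2103 and 2199 CPM in control and to 1255, 1689 and 2030 CPM in dKO RPE, sorted by level, with overlapping ranges. Melanocyte genes summed to 379 to 1436 CPM in control and 311 to 520 CPM in dKO RPE, mostly Dct. Of these 5 genes, Dct was detected in 78.9% of RPE cells, Sox10 in 54.7% (540 UMIs), Kit in 33.0% (218 UMIs) and Mlana in 11.2%, while Pax3 had 1 UMI. The part of any of these in the Hmox1 difference was not tested.

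Among the regulators in RPE, Nfe2l2 had 66.9, 47.9 and 58.2 CPM in control and 56.5, 40.9 and 38.5 CPM in dKO mice. The groups overlapped, with a log2 fold change of -0.32 (SE 0.21) and an adjusted p of 0.954 in edgeR. Keap1 had 15.9, 13.5 and 14.4 CPM in control and 21.1, 17.5 and 28.9 CPM in dKO mice, and the groups did not overlap. Its log2 fold change was 0.59 (SE 0.27), with an unadjusted p of 0.0482 and an adjusted p of 0.902 in edgeR's fit across all genes.

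For glutathione synthesis, Gclc had 41.4, 41.7 and 38.95 CPM in control RPE and 63.7, 66.3 and 29.9 CPM in dKO RPE. S06 and S08 were above the 3 control mice and S09 below them, and the log2 fold change was 0.45 (SE 0.26, edgeR adjusted p 0.940). Gclm was nearly level, at 62.8, 66.7 and 65.2 CPM in control and 63.7, 67.6 and 68.5 CPM in dKO mice (log2 fold change 0.06, SE 0.16). Slc7a11 was too low to be tested in RPE. Gpx4 had 67.2, 71.9 and 77.9 CPM in control and 88.5, 94.2 and 77.0 CPM in dKO mice, with overlap through S09, and a log2 fold change of 0.29 (SE 0.16, edgeR adjusted p 0.940).

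In the thioredoxin branch, Txnrd1 had 197, 107 and 215 CPM in control and 201, 281 and 290 CPM in dKO RPE. S06 lay within the control range and the other dKO mice above it, with a log2 fold change of 0.56 (SE 0.24, edgeR unadjusted p 0.0397, adjusted p 0.901). Srxn1, the gene with seed matches, had 3.32, 4.17 and 8.75 CPM in control and 5.06, 7.15 and 6.42 CPM in dKO RPE, all dKO values falling inside the control range. Its log2 fold change was 0.14 (SE 0.46), and it turned to -0.19 without control mouse S01 and to -0.01 without dKO mouse S08. Nqo1 had 47.7, 26.0 and 35.9 CPM in control and 62.4, 50.7 and 34.2 CPM in dKO mice, overlapping through S09, with a log2 fold change of 0.43 (SE 0.26, edgeR adjusted p 0.954).

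**Figure D3:**
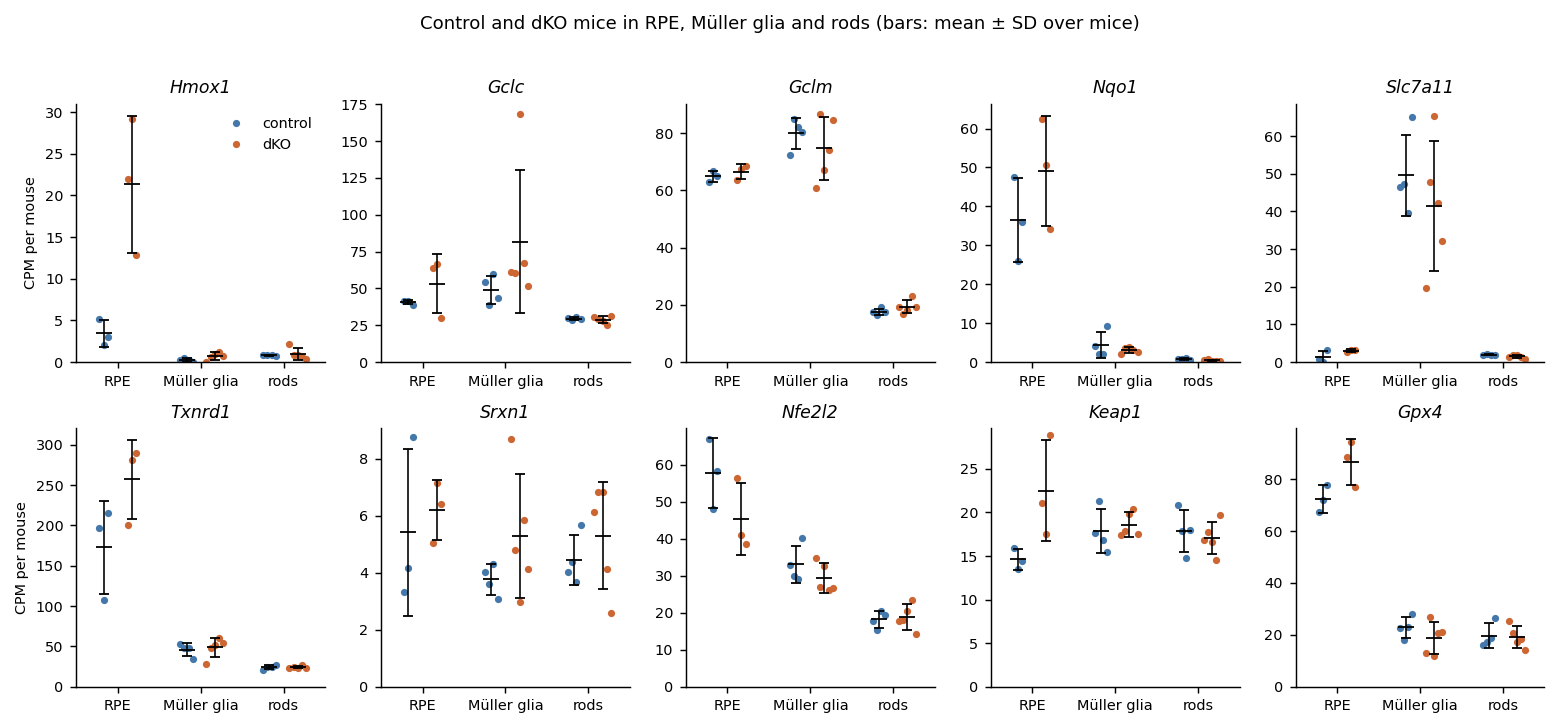
CPM of each gene (vertical axis, from 0) in RPE, Müller glia and rods. Points are mice (blue control, orange dKO) and bars give the mean ± SD over mice, and only Hmox1 and Keap1 in RPE have all dKO points above all control points.

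Of the 9 genes tested in RPE, 8 had a positive and 1 a negative log2 fold change, with a median of 0.43, against 0.0046 over all 10036 genes tested. These genes were tested because they passed a filter on low counts, which Hmox1 did through the dKO mice alone, and they share the same 6 mice, so the counts that follow are a description. An unadjusted p below 0.05 was met by 3 of the 9 (Hmox1, Txnrd1 and Keap1) and by 5.51% of all genes, while the adjusted threshold of 0.05 was met by 0% of genes. Complete separation with dKO above control was seen for 2 of the 9 (Hmox1 and Keap1) and for 4.88% of all genes, and with dKO below control for 0 and 5.77%. Across all 10036 genes 553 had an unadjusted p below 0.05, 329 of them (3.28% of genes) higher in dKO, and DESeq2 called 4 genes. Counts were also simulated at the depth of this comparison. Every gene was given a fixed dispersion (spread between mice beyond counting) of 0.05, which was not estimated from these mice. On them the test recovered 36 of 100 genes with a 2-fold and 96 of 100 with a 4-fold change. In that setting 2-fold differences were often not detected, and the rates for genes with another spread were not tested.

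Müller glia came from 4 control and 5 dKO mice, of which S04, S05 and S07 stood apart. They had 25, 36 and 75 Müller glia against 273 to 378 in the other 6 mice, rod markers at 1859, 1158 and 1518 CPM in these cells against 298 to 502 CPM, and high Y-linked and low Xist RNA. In Müller glia, Gclc had 54.0, 38.4, 59.6 and 43.3 CPM in the control mice, in order of their numbers, and 60.9, 60.7, 168, 66.9 and 51.6 CPM in the dKO mice S05 to S09. S07 stood far above all others and S09 lay within the control range. The log2 fold change was 0.63 (SE 0.30), with an adjusted p of 0.99967 in edgeR, and 0.25 without S07. In S07, 2 of 75 cells held 52 and 38 of its 170 Gclc UMIs, and without the 2 top cells of each mouse S07 had 83.2 CPM and the log2 fold change was 0.36 (SE 0.19). With S04, S05 and S07 all left out it was 0.23 (SE 0.16), and 1 gene, none of the 10, was called. The part of the rod RNA in these values was not tested. Slc7a11 had 46.3, 47.3, 39.6 and 65.0 CPM in control and 19.6, 47.9, 65.3, 42.2 and 32.0 CPM in dKO Müller glia, with overlapping groups and a log2 fold change of -0.15 (SE 0.22), or -0.13 (SE 0.15) without those 3 mice. Its lowest value, in S05, was of 9 UMIs. Gclm overlapped between the groups, at 80.02 ± 5.36 CPM in control and 74.8 ± 11.1 CPM in dKO mice (log2 fold change -0.07, SE 0.13). Hmox1 was not tested there, with 0 to 0.48 CPM in control and 0 to 1.17 CPM in dKO mice, from 19 UMIs in all.

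The remaining genes in Müller glia, Nfe2l2, Keap1, Gpx4, Txnrd1, Srxn1 and Nqo1, had log2 fold changes from -0.18 (Nfe2l2) to 0.30 (Srxn1), each with overlapping groups. None of the 9 tested genes had an unadjusted p below 0.05, against 2.29% of 12886 genes, and separation of the groups was met by 0 of 9, against 0.776% (dKO above) and 0.419% (dKO below). In rods, the largest difference among 8 tested genes was that of Slc7a11, with a log2 fold change of -0.28 (SE 0.28), and 0 of 8 reached an unadjusted p below 0.05, against 3.38% of 13295 genes. Separation was met by 0 of 8 genes in rods, against 0.692% and 0.301%. Hmox1 in rods was at 0.77 to 0.87 CPM in the 4 control mice and at 2.21 (S05), 0.84, 0.86, 0.59 and 0.35 CPM in the dKO mice, below the level that entered the test. Microglia markers in rods were at 14.6 CPM in S05 and at 4.72 to 5.87 CPM in the other 8 mice, and their part in the Hmox1 value was not tested. In data simulated with the same fixed dispersion for Müller glia and rods, 52 and 77 of 100 2-fold changes were recovered.

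**Figure D4:**
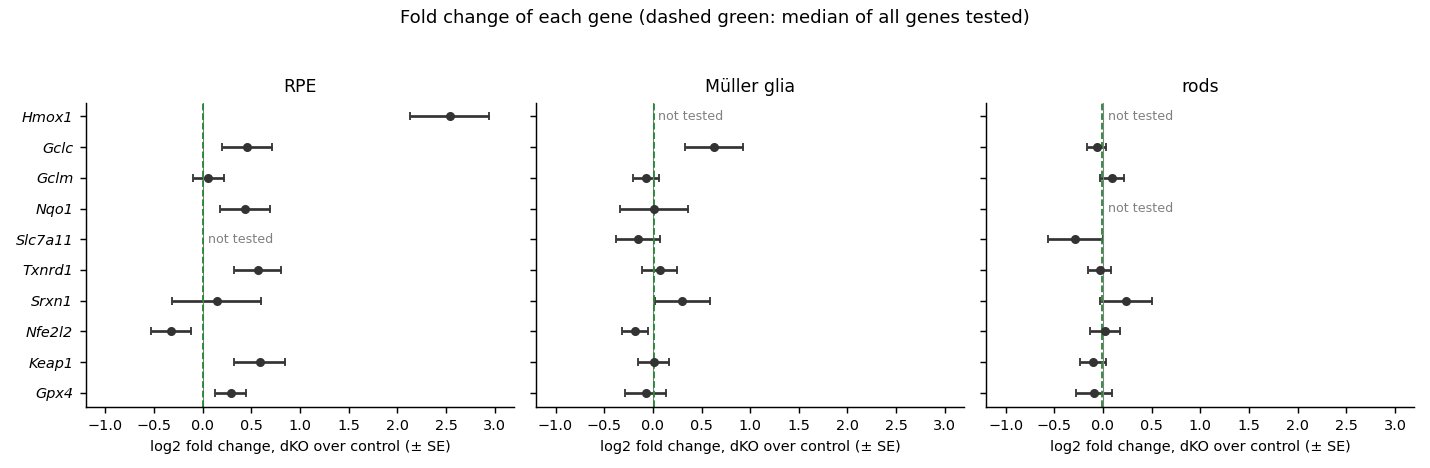
Log2 fold change of dKO over control (horizontal axis, point with SE from edgeR) for each gene in RPE, Müller glia and rods. Hmox1 in RPE lies at 2.54, all others between -0.32 and 0.63, and the dashed green line is the median of all genes tested.

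In the 8 further types with at least 3 mice in each group, 0 of the 10 genes passed the adjusted threshold of edgeR, which 0.00899% of genes in cones, 0.00815% in ganglion cells and 0% in the other 6 passed, and 2 had an unadjusted p below 0.05. Srxn1 in horizontal cells had 6.60 to 7.90 CPM in 3 control mice and 12.3 to 18.6 CPM in 4 dKO mice, without overlap (log2 fold change 0.93, SE 0.32, unadjusted p 0.0115), where 3.23% of 8384 genes reached that p and 2.37% were separated with dKO above. The control mouse S04, with 5 horizontal cells and so outside the comparison, had 4 UMIs and 25.1 CPM of Srxn1. In horizontal and in ganglion cells the control mice were S01, S02 and S03, all with high Xist RNA. The dKO mice included S07 in horizontal cells and S05 and S07 in ganglion cells, which had low Xist and high Y-linked RNA. The groups of these 2 types thus also differed in this, and its part was not tested. Hmox1 in fibroblasts had 14.0, 22.6 and 18.2 CPM in control and 36.1, 42.0 and 24.7 CPM in dKO mice, also without overlap (log2 fold change 0.92, SE 0.40, unadjusted p 0.0430), where 4.32% of 6436 genes reached that p and 5.25% were separated with dKO above. Without the top cell of each mouse the fibroblast levels were 9.72, 12.2 and 15.8 CPM in control and 17.4, 30.9 and 15.3 CPM in dKO mice, so that the groups overlapped and Hmox1 no longer passed the filter. Both genes had entered mainly through dKO mice. The filter's level of 8.77 CPM for Srxn1 was reached by 0 of 3 control and 4 of 4 dKO mice, and that of 21.5 CPM for Hmox1 by 1 of 3 control and 3 of 3 dKO mice, so their separation is a description. These fibroblasts and the RPE cells come from the same 6 mice. Gclc in horizontal cells (68.8 to 83.4 against 89.3 to 99.4 CPM) and Gclm in endothelial cells (30.04 to 40.0 against 40.3 to 56.3 CPM, with 2.79% of 6695 genes separated with dKO above) were separated without reaching an unadjusted p of 0.05. In cones, ON and OFF bipolar cells, amacrine cells and ganglion cells, 6 to 8 of the genes were tested, all with overlapping groups, and the log2 fold changes ran from -0.25 (Gclc in cones, SE 0.13) to 0.62 (Srxn1 in cones, SE 0.39).

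Further genes of the same pathways were examined as lists. In RPE, 76 genes of 10 lists were tested and 0 passed the adjusted threshold of edgeR. At an unadjusted p below 0.05, 5 were higher and 1 was lower in dKO, against 3.28% and 2.23% of all genes. The gene of these lists with the lowest p in RPE was Osgin1, an oxidative stress-induced growth inhibitor known as an NRF2 target, at 34.8 ± 16.4 CPM in control and 7.87 ± 5.31 CPM in dKO mice (SD, n = 3 and 3), with a log2 fold change of -1.97 (SE 0.43) and an adjusted p of 0.736 in edgeR. Its direction was opposite to that of Hmox1. The other 5 had positive values. They were Cat, the catalase of peroxisomes (0.58, SE 0.18), Txnip, the thioredoxin-binding protein (1.29, SE 0.46), G6pdx, which supplies NADPH (0.64, SE 0.23), Acsl4, which activates polyunsaturated fatty acids (0.59, SE 0.22), and Chac2, which degrades glutathione (0.81, SE 0.33), each a log2 fold change. Bach1, the repressor that heme displaces from Hmox1, had 44.6 ± 18.0 CPM in control and 67.3 ± 18.7 CPM in dKO RPE (log2 fold change 0.54, SE 0.28). Hmox2, the constitutive heme oxygenase, had 10.9 ± 3.24 and 16.1 ± 2.74 CPM (0.48, SE 0.31).

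By list, the median log2 fold change in RPE was 0.22 for 10 thioredoxin and peroxiredoxin genes (8 higher, 2 lower), 0.06 for 8 further glutathione genes (4 and 4) and 0.0005 for 10 genes of heme and iron handling (5 and 5). It was -0.22 for 7 genes of the ATF4 stress response (1 higher, 6 lower) and -0.34 for 8 immediate early and heat shock genes (3 higher, 5 lower), against 0.0046 over all genes tested. For 6 genes of other NRF2-linked detoxification it was 0.11 (4 higher, 2 lower). The remaining medians were 0.04 for superoxide and peroxide removal (3 and 3) and 0.03 for NRF2 regulators and partners (5 and 5). NADPH supply had -0.05 (4 and 5) and lipid peroxidation -0.20 (1 and 2). The lowest p values in the ATF4 list were those of Ddit3 (-0.38, SE 0.20) and Phgdh (-0.30, SE 0.18), and in the immediate early list those of Egr1 (-0.34, SE 0.15) and Fos (-0.36, SE 0.19), none below 0.05 before adjustment. In Müller glia 88 list genes were tested, 0 were called and 4 were lower at an unadjusted p below 0.05, which 0.815% of all genes met (Glrx -0.61, Prdx6 -0.39, Idh2 -0.40 and Ddit4 -0.69). By list in Müller glia, 6 of 6 genes of superoxide and peroxide removal (median 0.16), 8 of 8 of other NRF2-linked detoxification (0.18) and 4 of 4 of lipid peroxidation (0.19) had positive log2 fold changes, against a median of 0.0085 over all genes tested, and the other 7 lists had medians from -0.03 to 0.08. In rods 81 were tested, 0 were called, 3 were higher (Mgst3 0.78, Junb 0.44 and Hspa1a 0.57) and 1 was lower (Ccs -0.27) at that p, against 2.44% and 0.94% of all genes.

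The genes whose levels over the 13 cell types were most like those of Hmox1, by Pearson's r of mean log2 CPM among 14226 genes, were Mfsd7a (0.957), Rassf2 (0.940), Gm2814 (0.934), Rpl10 (0.931) and Slc36a2 (0.926). For Gclc they were Jpt1 (0.895), Muc1 (0.879), Wnt5a (0.872), Cd164l2 (0.868) and Rspo3 (0.865). The 13 points share mice and libraries, and fibroblasts or microglia hold the highest level of each of these genes, so the coefficients are a description.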

How the data were processed

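The authors dissociated the tissue with papain, prepared libraries by split-pool barcoding, mapped reads to GRCm39 and dropped cells in which few genes were detected and genes detected in few cells. Per the labels and the study's methods they analysed the data in Seurat 4.3.0 under R 4.2.2, with a test across single cells. The deposited matrix holds raw UMI counts, before normalization, for 31089 cells and 37725 genes.

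Cells were gated by at least 3 of 5 markers of a type, a score of at least 0.4 relative to typical levels, and a second type's score under 0.5 of the first. These thresholds were chosen after the data were seen. Of all cells, 1488 were mixed and 3178 below the limits, and both were left out; no doublet caller was run. Counts were summed per mouse and type, for mice with at least 10 cells of it, and dKO was compared with control by edgeR 4.0.16 (R 4.3.3) with TMM factors, filterByExpr and the quasi-likelihood test. P values were adjusted over all genes tested (Benjamini-Hochberg) and called at 0.05. The SE comes from the F statistic. DESeq2 1.42.0 and limma-voom (limma 3.58.1) were alternatives, and the test was tried on simulated data. Ratios between types used log2 of CPM plus 1.

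The 10 genes, the lists, the markers and the tests were chosen with earlier results of these data known. The rule named all 10 genes, for each list the 2 genes with the lowest unadjusted p in RPE, Müller glia and rods, and the 5 genes most like Hmox1 and Gclc among genes with at least 10 CPM in 1 type. Of the genes it named, those printed are the 10, the list genes with an unadjusted p below 0.05, 6 others in RPE and the like genes. The rest are given as counts, with medians of the lists in RPE and Müller glia and none in rods. Exceptions chosen after their values were seen are Eid3 and the marker genes named. Deposited gene names were matched to GENCODE M39, and the annotation the authors used may differ. Nothing in the labels states separate litters or batches, so p values measure the spread between these mice. Intervals and the floor of 3 counts cover counting error only, and free RNA was not removed.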

Additional observations from a re-analysis of the deposited data

Results flagged for a closer look

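In 40 sets of mice (a gene, a cell type and a group of 4 or 5 mice) the highest and lowest mouse were compared with the rest. Chance marks about 1 in 20 of these sets, and 2 mice stood apart, about as many as that share gives. Gclc in Müller glia was at 168 CPM in dKO mouse S07, from 170 UMIs in 75 cells, with the next dKO mouse at 66.9 CPM. Hmox1 in rods was at 2.21 CPM in dKO mouse S05, from 13 UMIs, with the next dKO mouse at 0.86 CPM and control mice at 0.77 to 0.87 CPM. In the same mice, rod markers in Müller glia were at 1518 CPM in S07, against 298 to 502 CPM in all but S04 and S05, and microglia markers in rods were at 14.6 CPM in S05, against 4.72 to 5.87 CPM in the other 8. Their part in either value was not tested.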

How the results depend on the processing

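With 3 mice a group in RPE, counts of called genes moved with the processing. In RPE, where edgeR called 0 genes, DESeq2 called 4, the fit with no low-count filter 87, the fit with the Xist level as a covariate 1 and the fit with no minimum of cells 6. Leaving out 1 mouse gave 0 to 9, the 9 without dKO mouse S06. Without the filter, 18 genes were called in Müller glia, 1 in rods, 32 in cones, 50 in ON bipolar cells, 36 in OFF bipolar cells, 205 in ganglion cells, 49 in horizontal cells, 128 in endothelial cells and 62 in fibroblasts. DESeq2 called 1 in rods, 0 in cones, 7 in ganglion cells, 1 in endothelial cells and 1 in fibroblasts, and leaving out 1 mouse gave 0 to 1 in Müller glia, rods, amacrine cells and horizontal cells and 0 to 2 in cones and ganglion cells, which had 1 each. Without S04, S05 and S07, chosen after seeing the data, 1 gene was called in Müller glia and 0 in rods.

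Of 450 alternative log2 fold changes of the 10 genes in RPE, Müller glia and rods, 34 changed sign. Hmox1 in RPE ran from 2.25 to 2.97 and passed 0.05 with DESeq2, without the filter (adjusted p 2.47e-07) and with no minimum of cells (2.52, adjusted p 0.000194). In Müller glia, Nqo1 turned to -0.0665 with DESeq2, -0.0042 without the filter, -0.0033 with S06 and S07 summed, -0.0405 with Xist and -0.0085 with the stricter gate. Keap1 there turned to -0.0081 without the filter, -0.10 without the 5% of cells with most UMIs and -0.0172 with the stricter gate, and Gpx4 to 0.0097 with Xist. Txnrd1 in rods turned to 0.0017 with library totals and 0.0254 without the 5% of cells with most UMIs. Without S04, S05 and S07, Gclm turned to 0.0357, Keap1 to -0.0015 and Gpx4 to 0.12 in Müller glia, and Txnrd1 to 0.0919 and Gpx4 to 0.0532 in rods. Leaving out 1 mouse gave -0.19 to 0.34 for Srxn1 in RPE, -0.18 to 0.25 for Nqo1, -0.0483 to 0.12 for Keap1, -0.24 to 0.0257 for Gpx4 and -0.0276 to 0.15 for Txnrd1 in Müller glia, and -0.0699 to 0.0963 for Nfe2l2, -0.11 to 0.0496 for Txnrd1 and -0.19 to 0.13 for Gpx4 in rods. The cause was not tested.

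Of 210 alternative ratios between types, 5 moved beyond their spread, all with a pseudocount of 5 CPM. For RPE over rods these were Gclm (1.58), Nqo1 (3.04) and Gpx4 (1.90), and for Müller glia over rods Nqo1 (0.60) and Slc7a11 (2.85), on the log2 scale. Thinning to 5000 UMIs, chosen after seeing the data, took the mean share of RPE cells with Hmox1 to 0.709% in control and 5.74% in dKO mice. These means rest on few cells with Hmox1, 0, 0 and 1 in control mice and 3, 1 and 1 in dKO mice. That of S09 was 1 of 13 cells, with 25 too shallow to enter. No paired analysis was possible because control and dKO mice carry different numbers and nothing in the labels pairs them.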
